A study of Mus musculus with 4 samples.

Results

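Olfm4, Adam11 and Acot1 are 3 of the 32289 genes counted in single cells of mouse inner ear organoids, and they were chosen by their measured RNA levels, which were higher in the GFP low than in the GFP high hair cells of day 21. That contrast therefore describes how the genes were picked and supports nothing else. The organoids were grown from the embryonic stem cell line Atoh1-nGFP, in which a nuclear GFP reports Atoh1, so every group carries the reporter. There was 1 library for each of 4 groups: day 16, day 20, day 21 sorted for high GFP and day 21 sorted for low GFP. Whole organoids were dissociated and flow sorted on GFP before 10x Genomics capture. The labels name a gate for day 21 alone; for days 16 and 20 they give no gate, and for no group do they give the limits of the gate or the number of organoids. With no replicate library, no difference below has a replicate check. All intervals are 95% intervals of counting error alone.

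Hair cells are the sensory cells of hearing and balance, and Atoh1 is the transcription factor that starts their formation and is turned down as they mature. Otof encodes otoferlin, the calcium sensor of transmitter release at the hair cell ribbon synapse, and cells with at least 3 Otof UMIs (molecules counted by their molecular identifier) are called Otof-positive here. Olfm4 encodes a secreted olfactomedin glycoprotein best known from intestinal stem cells and neutrophils. Adam11 encodes a membrane protein of the ADAM family that has no protease activity, binds LGI proteins and positions Kv1 potassium channels at certain synapses. Acot1 encodes a cytosolic acyl-CoA thioesterase, an enzyme that frees fatty acids from coenzyme A and a known target of the nuclear receptor PPARα.

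In GENCODE M21 (GRCm38) Olfm4 lies on the plus strand of chromosome 14 from 79984081 to 80023139, Adam11 on the plus strand of chromosome 11 from 102761439 to 102780262, and Acot1 on the plus strand of chromosome 12 from 84009490 to 84018371. All are protein-coding, with up to 7, 27 and 3 exons per transcript. Acot2, a near copy of Acot1, lies next to it on the same strand from 83987861 to 83993873. Of the 91-base windows of the longest Acot1 transcript, 13% also occur in Acot2, and 3.41% do so within its last 500 bases, so some Acot1 counts are uncertain. Acot2 values are given beside those of Acot1 for this reason. In Otof-positive cells of GFP low the members turned out to be detected together in the same cells. For that reason the promoters that RefSeq lists for members, Olfm4 and Acot1, are shown, with Acot2 for comparison. Each runs from 250 bases before to 50 after the start (GRCm38.p6). Capitals mark each match of CANNTG, the E-box letters that basic helix-loop-helix factors such as Atoh1 recognise. The strings are chr14:80000052-80000351, chr12:84009252-84009551 and chr12:83987611-83987910, all on the plus strand.
Olfm4: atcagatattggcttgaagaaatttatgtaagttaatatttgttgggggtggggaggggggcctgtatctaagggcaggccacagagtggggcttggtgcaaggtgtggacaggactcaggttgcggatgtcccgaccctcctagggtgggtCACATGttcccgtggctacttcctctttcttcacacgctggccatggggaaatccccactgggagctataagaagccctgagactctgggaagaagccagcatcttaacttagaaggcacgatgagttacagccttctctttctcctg
Acot1: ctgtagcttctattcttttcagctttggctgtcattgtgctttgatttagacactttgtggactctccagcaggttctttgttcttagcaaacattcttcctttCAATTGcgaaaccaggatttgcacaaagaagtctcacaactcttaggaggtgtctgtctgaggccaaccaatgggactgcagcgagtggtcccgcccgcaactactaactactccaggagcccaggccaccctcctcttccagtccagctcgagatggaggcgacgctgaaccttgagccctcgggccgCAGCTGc
Acot2: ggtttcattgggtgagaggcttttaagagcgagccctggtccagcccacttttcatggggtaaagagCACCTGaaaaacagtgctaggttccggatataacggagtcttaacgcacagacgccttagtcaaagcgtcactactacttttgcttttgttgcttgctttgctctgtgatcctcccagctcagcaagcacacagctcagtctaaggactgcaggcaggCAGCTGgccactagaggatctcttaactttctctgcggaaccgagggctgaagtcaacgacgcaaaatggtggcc
CANNTG occurred once in the Olfm4 window, 98 bases before the start, and at 2 places in each of the other windows. It occurs in 72.3% of 32851 mouse promoters of this length, so its presence is common. The palindrome CAGCTG, which is 1 form of CANNTG, was present in the Acot1 and Acot2 windows and occurs in 16.3% of promoters. CAGATG, another form, and AGGTCA, a half-site of nuclear receptors, were searched on both strands and had 0 matches in these 3 windows, against 17.2% and 16.3% of promoters. The only stretch that could be aligned between the Acot1 and Acot2 windows had 17 paired bases, of which 16 were identical.

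After filtering there were 3376 day 16 cells, 4348 day 20 cells, 3435 GFP high cells and 3686 GFP low cells, with median depths between 8836 UMIs (day 20) and 28868 UMIs (GFP high). Otof-positive cells numbered 147, 113, 2249 and 642 in the same order. Between 92.4% and 98.2% of them fell in clusters named hair-cell-like from marker genes, which were clusters 2, 4, 14 and 15 of 25. In GFP high, 134 Otof-positive cells belonged to cluster 22, which held hair and supporting cell markers together and was deep in UMIs, against 5 in GFP low. The libraries shared between 1 and 8 barcodes pairwise.

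In Otof-positive cells each gene was highest in GFP low and next highest in GFP high, while the values of days 16 and 20 rest on few cells. In CPM, a gene's UMIs per 1000000 UMIs of the summed cells, Olfm4 was counted at 1.33 (0.536 to 2.74) on day 16 and 5.40 (2.70 to 9.66) on day 20. The GFP high library had 17.9 CPM (17.0 to 18.9), and the GFP low library 98.7 CPM (94.0 to 103.5). The day 16 and day 20 intervals of Olfm4 overlap slightly, as they rest on 7 and 11 UMIs. Adam11 was counted at 4.95, 12.8, 23.1 and 161 CPM in the same order of libraries. None of its neighbouring intervals overlap, but 26 UMIs underlie each of the early values. Acot1 was counted at 6.66, 12.8, 21.3 and 92.1 CPM, where the intervals of day 16 (4.64 to 9.26) and day 20 (8.34 to 18.7) overlap. Of the 26 Acot1 UMIs of day 20, 21 were in 1 cell, which belonged to cluster 15. Without the highest cell of each library Acot1 was at 5.60 CPM on day 16 and 2.48 CPM (0.805 to 5.79) on day 20. Over all Otof-positive cells, Acot1 had a UMI in 22 of 147 on day 16 and 5 of 113 on day 20. Acot2, for comparison, was counted at 10.1, 12.3, 22.7 and 42.2 CPM.

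The ratio of GFP low to GFP high was 5.51 for Olfm4 (5.13 to 5.93), 6.98 for Adam11 (6.57 to 7.41) and 4.33 for Acot1 (4.03 to 4.64). Each of the 3 passed a rule of size (a ratio of at least 2 either way, an interval that excludes 1, and 10 CPM in either library), as 1.64% of 9526 genes did in this direction and 3.35% in the other. This contrast chose the genes, and nothing is read from the count. By size of the ratio among genes at 50 CPM or more, Adam11 stood at place 3, Olfm4 at place 5 and Acot1 at place 8. Their neighbours were Bmp2, a secreted growth factor, at place 2 with a ratio of 7.25, and Lpo, lactoperoxidase, at place 4 with 5.65. Place 1 was held by Dppa5a, at 80.02 CPM in GFP low and 0.067 CPM in GFP high. Dppa5a led cluster 23, named pluripotent-like, which had 89 cells in GFP low and 1 in GFP high. Of the cluster 23 cells in GFP low, 1 was Otof-positive. The source of the Dppa5a RNA was not tested. In the Otof-positive cells Atoh1 went the other way, with 39.6 CPM in GFP low and 168 CPM in GFP high, and the reporter Egfp was at 1194 and 4786 CPM. Acot2 had a ratio of 1.86 (1.70 to 2.03) and did not pass the rule.

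Between day 16 and day 20, Adam11 in Otof-positive cells was higher at day 20 by a ratio of 2.58 (1.44 to 4.62) and passed the same rule, as 5.56% of 9359 genes did. Acot1 had a ratio of 1.92 (1.11 to 3.28), which turned to 0.443 (0.134 to 1.16) without the cell highest in it in each library, while Adam11 then had 2.47 (1.33 to 4.56). Olfm4, at 4.05 (1.44 to 12.3), was below 10 CPM at both days and was not entered. With 7 to 35 UMIs behind each value these ratios are only roughly known, and the depth of the gated cells also differed, at medians of 33870 and 18010 UMIs.

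Most of the Olfm4 and Adam11 RNA of the GFP low library was in cluster 15, a hair-cell-like cluster led by the potassium channel gene Kcna10 and the homeobox gene Lbx2. Cluster 15 had 342 cells in GFP low, 112 in GFP high, 7 at day 20 and 0 at day 16. It made up 9.28% of GFP low cells and held 96.0% of that library's Olfm4 UMIs, 80.2% of its Adam11 UMIs and 32.4% of its Acot1 UMIs. In GFP high it made up 3.26% of cells and held 30.7%, 50.5% and 16.7% of the UMIs of the same genes. The cluster was built from these cells and genes, so its levels are a description.

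Within cluster 15 the spread over cells differed sharply between the genes. Adam11 had at least 1 UMI in 92.1% of GFP low cells of the cluster, with a median of 8 UMIs and a maximum of 45, and its 10 highest cells held 10.6% of its UMIs. Acot1 was found in 56.1% of these cells, with a median of 1 and a maximum of 100 UMIs, and its 10 highest cells held 24.0%. Olfm4 was found in 33.3% of them, reached 319 UMIs in a cell, and had 45.8% of its UMIs in 10 cells. In the GFP high cells of cluster 15, 95.4% of Olfm4 UMIs lay in 10 cells, and 2 cells held more than 50% of them. Adam11 was thus a gene of nearly every cell of the cluster, and Olfm4 a gene of a minority with very high counts. As a measure of free RNA, Olfm4 had a UMI in 1.39% of GFP low neuron-like cells, Acot1 in 2.11% of Merkel-like cells and Adam11 in 9.68% of epidermis-like cells. The median depths were 21155, 15100 and 33164 UMIs, against 26044 UMIs in cluster 15.

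The Otof gate kept 59.9% of the GFP low cells of cluster 15 and 86.6% of its GFP high cells. Olfm4 in the GFP low cells of cluster 15 was at 283 CPM with 3 or more Otof UMIs, at 356 CPM with 1 to 2, and at 697 CPM (653 to 743) in the 59 cells with none. Adam11 went the other way, at 447, 335 and 268 CPM. Acot1 had 264, 184 and 216 CPM. For Olfm4 the share of cells with a UMI was 29.3%, 38.5% and 40.7%. The cell with 319 Olfm4 UMIs was 1 of the 59, which held 934 in all. The counting interval does not cover the weight of such a cell. Of all Olfm4 UMIs in GFP low, 29.3% were in cells without an Otof UMI, nearly all of it in hair-cell-like clusters, which held 98.1% of the gene's UMIs. A definition by Otof therefore leaves out part of the Olfm4 signal: over the hair-cell-like clusters the ratio of GFP low to GFP high was 8.23 for Olfm4, 7.24 for Adam11 and 5.12 for Acot1, and all 3 were again higher by the rule of size, as were 1.66% of 9373 genes. This is the contrast that chose the genes, seen in other cells of the same libraries.

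**Figure D1:**
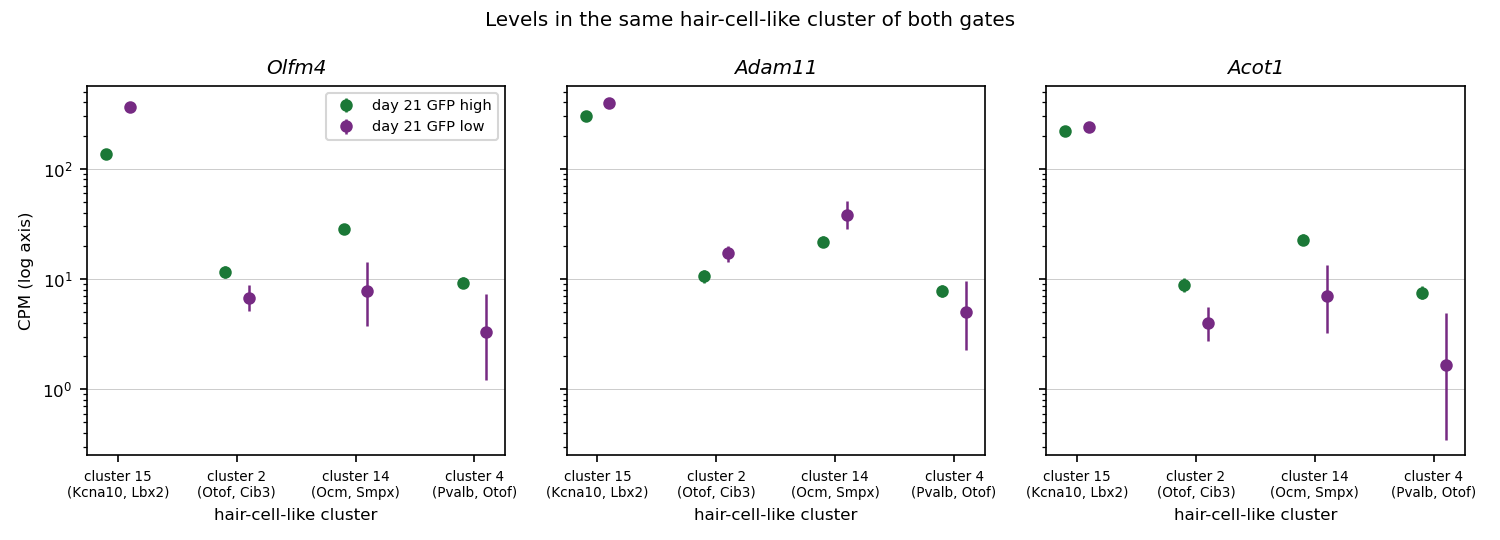
Level of each gene (CPM, log axis) in the 4 hair-cell-like clusters of the GFP high and GFP low libraries, with points for the summed cells and bars for the 95% Poisson interval (counting error only). Cluster 15 is the highest in both libraries for all 3 genes, and Olfm4 and Acot1 are lower in GFP low than in GFP high in the other clusters.

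Comparing the gates inside the same cluster gave much smaller ratios, and for Olfm4 and Acot1 ratios in the other direction. In cluster 15 Olfm4 was at 360 CPM in GFP low and 135 CPM in GFP high, a ratio of 2.66 (2.41 to 2.95). Adam11 had a ratio of 1.32 (1.23 to 1.41) there, and Acot1 was nearly level at 239 and 219 CPM (1.09, 1.004 to 1.19). By the rule of size 1 of the 3 genes, Olfm4, was higher in GFP low in this cluster, as were 0.647% of 9122 genes. In cluster 14, led by Ocm, the gene of the calcium buffer oncomodulin, Olfm4 was at 7.81 CPM in the 48 GFP low cells and 28.5 CPM in GFP high, and Acot1 at 7.03 and 22.7 CPM. Both passed the rule as lower in GFP low, as 4.68% of 9197 genes did. Cluster 2, led by Otof and Cib3, gave ratios of 0.577 for Olfm4 (0.425 to 0.772) and 0.449 for Acot1 (0.301 to 0.651). In cluster 4, led by Pvalb, the parvalbumin gene, they were 0.360 and 0.221 on 6 and 3 GFP low UMIs. Adam11 was higher in GFP low in cluster 2 (1.62, 1.31 to 1.998) and cluster 14 (1.75, 1.27 to 2.38), and had 0.641 (0.289 to 1.24) in cluster 4. With the GFP high clusters weighted by the UMI totals that the same clusters have in GFP low, the ratios over Otof-positive cells of these 4 clusters were 1.72 for Olfm4, 1.41 for Adam11 and 1.07 for Acot1. The share of cluster 15 in the Otof-positive cells, 205 of 642 in GFP low and 97 of 2249 in GFP high, thus moved with the contrast that chose the genes.

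Detection of the 3 genes in the same cell was counted after each cell had been thinned at random to 5000 UMIs, so that depth was equal, and a cell counted as positive with at least 1 UMI left. In GFP low, 6 of the 642 Otof-positive cells were too shallow and were left out, as were 6 of 2249 in GFP high. Of GFP low cells 55 were positive for Olfm4, 186 for Adam11 and 95 for Acot1, of 636. Adam11 was found in 61.8% of Olfm4-positive cells (47.7 to 74.6%) and 26.2% of Olfm4-negative cells (22.6 to 29.9%). Acot1 was found in 49.1% of Olfm4-positive cells (35.4 to 62.9%) and 11.7% of negative cells (9.20 to 14.6%). Acot1 was also found in 39.8% of Adam11-positive cells (32.7 to 47.2%) and 4.67% of negative cells (2.91 to 7.05%). All 3 pairs therefore shared cells beyond counting error in this library. The genes were chosen as high in these cells, and co-detection over all pairs of genes was not counted. Nothing is therefore read from the count of pairs. All 3 genes were found in 25 cells. Every one of these 25 cells was in cluster 15, as were all 60 cells with exactly 2 of the genes, 62.4% of the cells with 1 and 7.80% of the cells with none.

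**Figure D2:**
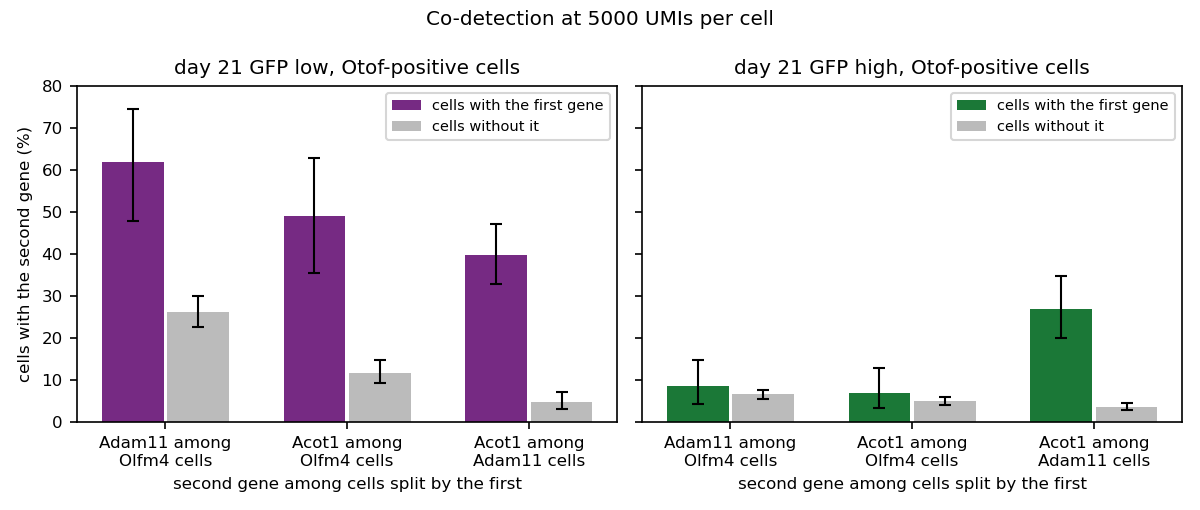
Share of Otof-positive cells with the second gene (%), among cells with the first gene (coloured) and without it (grey), after thinning to 5000 UMIs per cell, with exact Clopper-Pearson intervals as bars. In GFP low all 3 pairs differ beyond their intervals; in GFP high the pair of Adam11 and Acot1 does, at 26.8% against 3.53%.

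In GFP high, Adam11 and Acot1 shared cells (26.8% of Adam11-positive cells had Acot1, 19.9 to 34.7%, against 3.53% of negative cells, 2.79 to 4.42%). Olfm4 did not share cells with either beyond counting error there. Adam11 was in 8.46% of Olfm4-positive cells (4.30 to 14.6%) and 6.53% of negative cells, and Acot1 in 6.92% (3.21 to 12.7%) and 4.97%. Of the 130 Olfm4-positive cells in GFP high, 7.69% were in cluster 15, compared with 76.4% of the 55 in GFP low. In both libraries the Adam11 and Acot1 pair also held inside cluster 15, with Acot1 in 45.4% of Adam11-positive and 16.3% of Adam11-negative cells of GFP low (intervals 38.9 to 51.9% and 9.63 to 25.2%) and 49.3% and 18.2% in GFP high (36.8 to 61.8% and 8.19 to 32.7%). Olfm4 and Acot1 held together inside cluster 15 of GFP low, at 57.3% (45.4 to 68.7%) against 31.0% (25.5 to 37.0%). Adam11 was in 80% (69.2 to 88.4%) of Olfm4-positive cells of the cluster and in 68.2% (62.2 to 73.8%) of the others, where the intervals overlap. In clusters 2, 4 and 14 of GFP low, 0 of 13 Olfm4-positive cells had Adam11 or Acot1, and 0 of 34 Adam11-positive cells had Acot1, which allows shares of up to 24.7% and 10.3% by the exact intervals. In the same clusters of GFP high, Acot1 was in 12.2% (6.26 to 20.8%) of 90 Adam11-positive cells and 3.12% (2.41 to 3.98%) of negative cells, so this pair shared cells outside cluster 15 there.

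Atoh1 was lower in GFP low cells positive for Adam11 or Acot1 than in those negative for them, and did not pass the rule of size for any member in GFP high. In GFP low, Atoh1 was at 19.4 CPM in Adam11-positive and 48.4 CPM in Adam11-negative Otof-positive cells, a ratio of 0.400 (0.228 to 0.662) on 18 and 109 UMIs. Acot1 gave 16.8 and 44.0 CPM, a ratio of 0.383 (0.162 to 0.779) on 8 and 119 UMIs. Olfm4 gave 32.7 and 40.6 CPM, a ratio of 0.806 (0.360 to 1.58), which does not exclude 1, and its 9 Atoh1 UMIs came from 3.64% of its 55 cells. Adam11 and Acot1 passed the rule of size as lower, as did 11% of 11371 genes split in the same way in this library, while 10.2% passed as higher. A move of Atoh1 in either direction was thus common among genes in these cells, and little is read from the count of members. No Atoh1 UMI was found in the 25 cells with all 3 genes, which allows up to 29.5 CPM by the exact interval. In GFP high the ratios were 0.719 (0.562 to 0.908) for Olfm4, 0.890 (0.723 to 1.09) for Adam11 and 0.862 (0.677 to 1.08) for Acot1, and 0 of 3 passed the rule, which 6.24% of 13630 genes passed as lower and 3.73% as higher. Without thinning, GFP high cells with no Atoh1 UMI had 30.3 CPM of Olfm4, 43.9 CPM of Adam11 and 40.6 CPM of Acot1. Those at 400 CPM of Atoh1 or more had 7.73, 9.15 and 7.73 CPM, and the intervals did not overlap. Cluster 15 made up 8.58% and 0% of these 2 sets of cells. The members were thus lower in the cells richest in Atoh1 in GFP high too. On days 16 and 20 the positive cells numbered 1 to 9 per gene, and the interval of the Atoh1 ratio included 1 for each gene. On day 16 the ratios were 0.353 (0.0721 to 1.05) for Adam11 and 1.28 (0.507 to 2.68) for Acot1, and on day 20 they were 0.420 (0.0105 to 2.40) for Olfm4 and 1.31 (0.578 to 2.62) for Adam11. No Atoh1 UMI was found in the 2 Olfm4-positive cells of day 16 or the 1 Acot1-positive cell of day 20. Within cluster 15 of GFP low, where Atoh1 was at only 8.61 CPM, the ratios were 0.580 for Olfm4 (0.0630 to 2.61), 2.47 for Adam11 (0.550 to 22.7) and 0.95 for Acot1 (0.25 to 3.16), on 14 Atoh1 UMIs in all. At this depth a difference in Atoh1 within the cluster was not detectable.

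The reporter RNA was also lower in member-positive cells of GFP low, but it did not match Atoh1 in every library. Egfp in GFP low was at 677 CPM in Adam11-positive and 1483 CPM in Adam11-negative Otof-positive cells (ratio 0.457, 0.419 to 0.498), and the ratio was 0.558 (0.499 to 0.622) for Acot1 and 0.846 (0.748 to 0.953) for Olfm4. In GFP high the Egfp ratio was 0.83 for Olfm4, 0.769 for Adam11 and 0.736 for Acot1, with each interval below 1. On day 16 it was 2.24 (1.86 to 2.69) for Olfm4 and 1.42 for Acot1, both with intervals above 1, on 2 and 4 positive cells. Adam11 had 0.512 (0.409 to 0.634) there, on 6. On day 20 the ratio was 0.258 for Olfm4, 0.932 for Adam11 and 0.0711 for Acot1, on 3, 9 and 1 positive cells. Inside cluster 15 of GFP low it was 0.935 (0.825 to 1.06) for Adam11, 0.9998 (0.887 to 1.13) for Acot1 and 1.04 (0.905 to 1.19) for Olfm4. Inside cluster 15 of GFP high it was 0.641 (0.542 to 0.758) for Adam11 and 0.680 (0.563 to 0.817) for Acot1. Positive cells also carried more mitochondrial RNA: medians of 9.82% against 6.33% for Adam11, 9.66% against 6.99% for Acot1 and 7.85% against 7.34% for Olfm4 in GFP low. The part of this in the results was not tested. Median depth before thinning was close, at 26067 and 25699 UMIs for Adam11.

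Cells were also binned by their own Egfp level. In GFP low, Adam11 was at 235 CPM (223 to 248) in cells below 500 CPM of Egfp, 191 CPM at 500 to 1000, 56.4 CPM at 1000 to 2000, 33.6 CPM at 2000 to 4000 and 11.2 CPM (4.83 to 22.1) at 4000 to 8000. Acot1 was at 113, 131, 30.8, 18.1 and 6.997 CPM in the same bins, and Olfm4 at 146, 127, 15.2, 9.07 and 8.40 CPM. The share of cluster 15 in these bins was lower from each bin to the next, at 50.5%, 36.1%, 12.3%, 4.88% and 3.85%. In GFP high the lowest bins were also the highest in Adam11 and Acot1, at 49.98 and 41.03 CPM below 500 CPM of Egfp and 55.3 and 45.4 CPM at 500 to 1000, compared with 8.64 and 6.46 CPM above 8000. Olfm4 did not decline in order in GFP high. It was at 10.7 CPM in the lowest bin, 46.1 CPM at 500 to 1000 and 10.8 CPM (9.16 to 12.5) in the highest. Below 1000 CPM of Egfp all 3 genes were higher in the GFP low library, which is again the contrast that chose them. Cluster 15 made up 11.3% and 10.2% of the GFP high cells in these 2 bins, compared with 50.5% and 36.1% in GFP low.

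**Figure D3:**
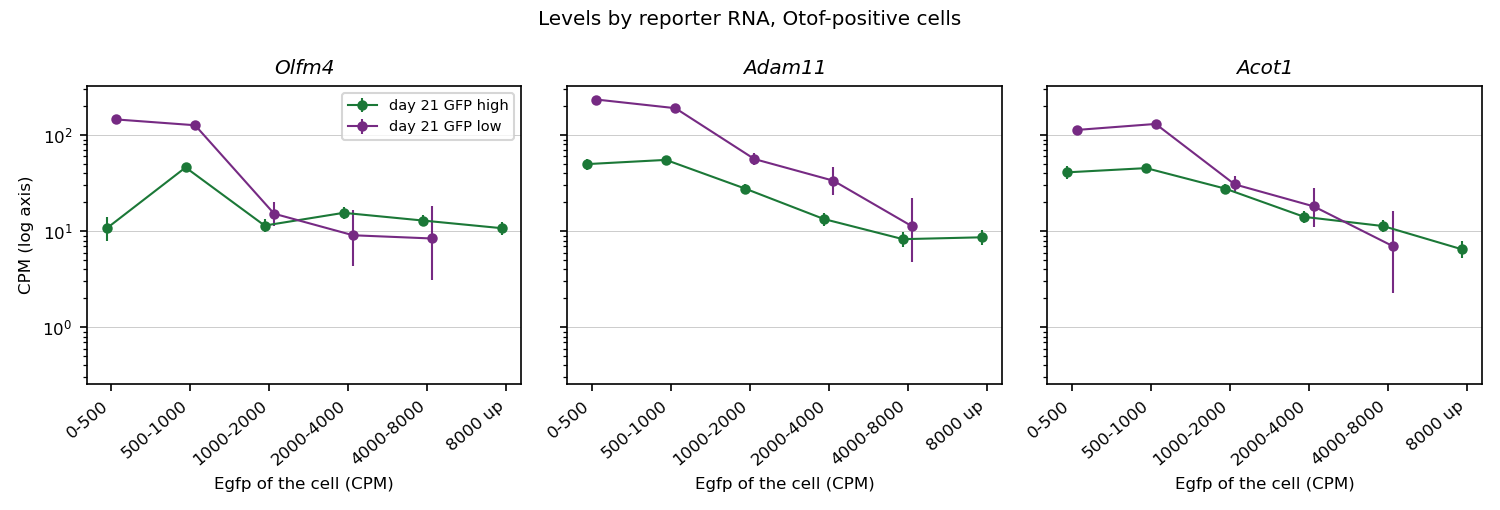
Level of each gene (CPM, log axis) in Otof-positive cells binned by their Egfp level (CPM), for the GFP high and GFP low libraries, with 95% Poisson intervals as bars and bins under 20 cells left out. Adam11 and Acot1 are lower in the bins above 1000 CPM of Egfp than in those below it in both libraries, and Olfm4 is so in GFP low.

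Outside hair cells the 3 genes parted. Olfm4 was near 0: 0.619 CPM in neuron-like, 0.456 CPM in Merkel-like and 0 in mesenchyme-like cells of GFP low (0 of 116 cells with a UMI), and at most 2.08 CPM in these classes of the other libraries. In epidermis-like cells of GFP low its 14 UMIs came from 1 cell. At day 16, neuron-like cells held 50% of the Olfm4 UMIs, in 39.5% of cells, and hair-cell-like clusters 25%. The levels were 0.645 CPM (0.352 to 1.08) in neuron-like and 1.33 CPM (0.536 to 2.74) in Otof-positive cells, where the intervals overlap. Adam11 was low but present in neuron-like cells, at 7.09 CPM (6.02 to 8.30) on day 16 and 10.8 CPM (8.49 to 13.6) on day 20, and it was at 9.25 CPM (6.61 to 12.6) in those of GFP high and 16.6 CPM (14.9 to 18.3) in those of GFP low. Merkel-like cells, which resemble the touch cells of skin that also depend on Atoh1, had Adam11 at 7.22, 16.6, 14.4 and 9.57 CPM. At days 16 and 20 these 2 classes held most Adam11 UMIs and were also larger than the hair-cell-like clusters. Neuron-like cells held 57.0% and 29.6% in 39.5% and 15.3% of cells, and Merkel-like cells 15.6% and 46.0% in 10.5% and 18.4%. Hair-cell-like clusters held 9.63% and 13.2% in 5.63% and 3.33% of cells, at 4.19 and 13.3 CPM.

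Acot1 was well above 0 in several other cell types, so its RNA was not particular to hair cells of the GFP low library. In GFP low, 33.0% of its UMIs were in hair-cell-like clusters, and its level in all cells, 71.6 CPM in GFP low and 40.9 CPM in GFP high, differed by a ratio of 1.75. Cluster 13, unnamed and led by the otoconial gene Oc90 with Mia and Cnmd, had Acot1 at 164 CPM (156 to 172) in GFP low and 189 CPM (179 to 199) in GFP high, in 84.7% and 83.4% of its cells. Epidermis-like cells had 116, 85.9, 87.5 and 69.3 CPM, in the order day 16, day 20, GFP high, GFP low. Mesenchyme-like cells had 29.2, 21.1, 71.6 and 64.9 CPM. Merkel-like cells were lowest, between 0.434 and 2.15 CPM in the 4 libraries, on 3 to 4 UMIs each. Acot2 in cluster 15 was at 92.4 CPM in GFP low and 89.1 CPM in GFP high, and in cluster 13 at 22.01 and 29.04 CPM, so that the difference between these clusters was larger for it than for Acot1.

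**Figure D4:**
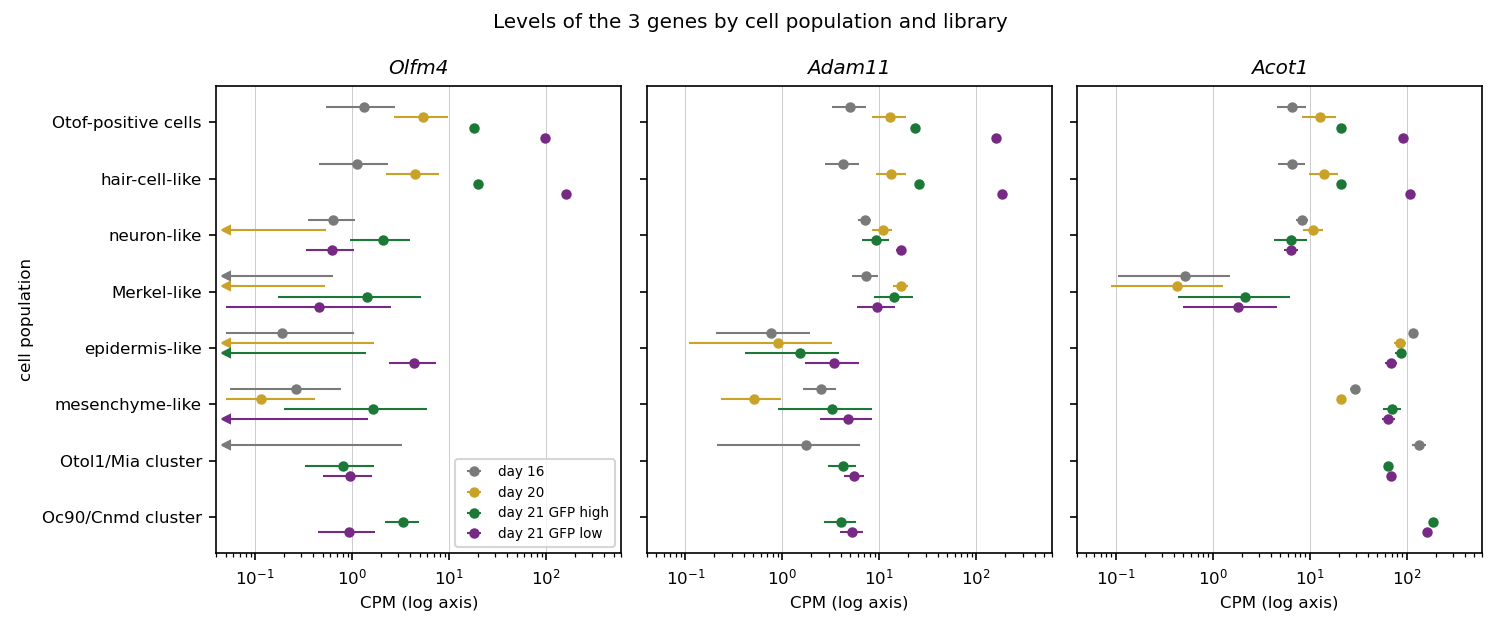
Level of each gene (CPM, log axis) in 8 cell populations of the 4 libraries, with 95% Poisson intervals as bars (arrowheads at the left edge mark 0 UMIs, bars are drawn from 0.05 CPM up, and populations under 50 cells are left out). Olfm4 rises above 10 CPM in hair cells of day 21 alone, while Acot1 in GFP low is at 69.3 CPM in epidermis-like cells and 164 CPM in the Oc90 cluster, beside 92.1 CPM in Otof-positive cells.

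Genes with the most similar pattern were ranked by Pearson correlation, across cells of the natural log of 1 plus the UMIs per 10000 (genes found in at least 10% of the cells). Across the 642 Otof-positive cells of GFP low, which share a library and differ in depth, the closest to Adam11 of 10743 genes were Bmp2 (r = 0.79), Efhd2, a calcium-binding protein gene (0.75), Car7, a carbonic anhydrase gene (0.75), Tshz3, a zinc finger gene (0.72), and Acot1 (0.70). Acot1 was closest to Adam11, Efhd2 (0.65), Bmp2 (0.64), Spns3 (0.62) and Lpo (0.62). Olfm4 was closest to Spns3, a sphingolipid transporter family gene (0.51), Acot1 (0.48), the metalloprotease gene Mmp23 (0.48), Slc15a5 (0.43) and the homeobox gene Gbx2 (0.43), with Adam11 at place 12 (0.39). In the 2249 GFP high cells Bmp2 was again the first for Adam11 (0.62) and Acot1 (0.50). Olfm4 there had correlations of 0.06 with Spns3, 0.18 with Acot1, 0.21 with Mmp23, 0.15 with Slc15a5 and 0.07 with Gbx2. Over 59 pairs of cluster and library with at least 50 cells, on log2(CPM + 1), the leading genes included others: Car7 (0.88), Ldb3, Gm9195, Efr3a and Gm15543 (0.85) for Olfm4, Abr (0.77), Ap1ar, Mapk8ip1 and Madd (0.76) for Adam11, and Sfxn5 (0.73), Kctd14, Id1, Pdgfc and Npnt (0.66) for Acot1. On that scale Adam11 and Acot1 had a correlation of 0.01, and so were alike within hair cells and not across cell types.

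Bmp2 was higher in GFP low cells positive for each member. After thinning it was at 728 CPM in Adam11-positive and 93.3 CPM in Adam11-negative cells (ratio 7.80, 6.67 to 9.15), at 1042 and 145 CPM for Acot1 (7.19) and at 796 and 230 CPM for Olfm4 (3.46). In cluster 15 alone the ratios were 1.55 (1.34 to 1.78), 1.94 (1.73 to 2.18) and 1.42 (1.25 to 1.61). In GFP high, Bmp2 was found in 44.3% (36.2 to 52.7%) of Adam11-positive and 5.21% of negative cells, and in 10% (5.43 to 16.5%) of Olfm4-positive and 7.67% (6.57 to 8.88%) of negative cells, where the intervals overlap. Among 17 BMP pathway genes 5 had 20 CPM or more in either set of cells. Besides Bmp2, the inhibitor gene Smad7 was higher in Acot1-positive cells (187 and 85.8 CPM), and the receptor gene Bmpr2 was lower in Olfm4-positive cells (32.7 and 71.3 CPM). Their ratios in cluster 15 alone were 1.23 (0.963 to 1.57) and 0.735 (0.391 to 1.30), and both intervals include 1. By the same rule of size at 20 CPM, 3.36% of genes were higher and 2.61% lower in Olfm4-positive cells, 3.09% and 4.19% in Adam11-positive cells, and 4.27% and 4.58% in Acot1-positive cells of GFP low.

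The families of the members were compared between the gates by the same rule of size, which 1.64% of all genes passed as higher in GFP low and 3.35% as lower. Of 10 olfactomedin family genes 6 reached 10 CPM in Otof-positive cells of day 21, and Olfm2 (52.1 and 24.9 CPM in GFP low and GFP high) and Gldn, the gliomedin gene (11.2 and 5.17 CPM), were higher in GFP low beside Olfm4. Olfml2b was lower (5.14 and 12.3 CPM), and Olfm1 and Olfml3 passed neither way. Of 18 genes of the ADAM family and its partners 7 reached 10 CPM. Kcna2, which encodes the Kv1.2 channel subunit, was higher in GFP low beside Adam11 (65.3 and 17.8 CPM), and the other 5, Adam9, Adam10, Adam15, Adam17 and Adam22, passed neither way. The LGI ligand genes and Kcna1 were all below 2 CPM in both gates. Among 14 thioesterase genes 6 reached 10 CPM and Acot1 was the 1 that passed, while Acot2, Acot7, Acot8, Acot13 and Them4 did not. Acot2 was nevertheless higher in the GFP low cells positive for each member, at 98.2 and 38.9 CPM for Olfm4, 77.4 and 30.2 CPM for Adam11 and 128 and 29.2 CPM for Acot1.

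Gene lists of related pathways were read in the thinned GFP low cells split by each member. The sets differ in cluster: cluster 15 made up 76.4% of Olfm4-positive and 28.1% of negative cells, 82.3% and 11.6% for Adam11, and 92.6% and 21.6% for Acot1. Within cluster 15 the interval still excluded 1 in the same direction for 10 of the 14 list genes that were higher and 4 of the 8 that were lower with Olfm4, 7 of 11 and 4 of 17 with Adam11 (where 1 more, Col2a1, turned to 2.61, 1.28 to 5.99), and 14 of 18 and 2 of 9 with Acot1. The Otof gate, in which the list genes were called, held 59.9% of these cluster 15 cells. The counts are thus not independent of the calls, and no share over all called genes is given beside them. Of 23 genes of fatty acid oxidation and PPAR signalling, 7 to 9 were at 20 CPM or more. Acsl1, which activates long-chain fatty acids, was higher in Adam11-positive (420 and 127 CPM) and Acot1-positive cells (453 and 171 CPM). Its ratios within cluster 15 were 1.16 (1.001 to 1.36) and 1.11 (0.966 to 1.27). Fabp3, a fatty acid carrier, was higher in Olfm4-positive (40 and 9.64 CPM) and Acot1-positive cells (27.4 and 9.61 CPM), and Slc25a20, the mitochondrial carnitine carrier, in Olfm4-positive cells on 8 UMIs. No gene of this list was lower with any member. Its median log2 ratio was 0.41 for Olfm4, 0.09 for Adam11 and 0.17 for Acot1, against 0.05, 0.01 and 0.02 over all genes.

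The retinoic acid degrading enzyme gene Cyp26b1, which marks the striola of balance organs, was higher with each member, at 127 and 48.5 CPM for Olfm4, 109 and 33.3 CPM for Adam11 and 149 and 38.8 CPM for Acot1. Within cluster 15 its ratios were 1.47 (1.06 to 2.02), 1.82 (1.26 to 2.69) and 1.59 (1.19 to 2.13). On the list of type I or striolar hair cell genes, 6 were measured and 1, 2 and 2 were higher with Olfm4, Adam11 and Acot1, with 0 lower. Spp1, osteopontin, was the other one, at 2834 and 1405 CPM for Adam11. On the list of type II or extrastriolar genes 7 were measured, with 0 higher and 1, 2 and 1 lower. Kcnh7 was lower with each member, and Anxa4 with Adam11 (120 and 282 CPM). The interval of Kcnh7 within cluster 15 excluded 1 with Olfm4 (0.211, 0.0245 to 0.825) but not with Adam11 or Acot1. Anxa4 had 0.598 (0.457 to 0.785) there. In the Notch list, Lfng, Mfng and Hey1 were lower of 8 genes measured with Adam11, Mfng was lower with Acot1, and Hes6 was lower and the ligand gene Dll4 higher with Olfm4. Of these, Hes6 kept an interval below 1 within cluster 15 (0.348, 0.135 to 0.756). The intervals of Lfng, Mfng, Hey1 and Dll4 included 1 there, and Mfng with Acot1 turned to 1.28. Sox2, a supporting cell and early hair cell factor, was at 96.8 and 412 CPM for Adam11 and 61.1 and 365 CPM for Acot1, but its ratios within cluster 15 were 0.618 (0.358 to 1.08) and 0.733 (0.397 to 1.30). Of 23 hair bundle genes 19 or 20 were measured. Myo15, a myosin of the stereocilia tip, was higher with Olfm4 (255 and 122 CPM), Strc, the stereocilin gene, with Adam11 (120 and 55.6 CPM), and Tmc1 and Cib2 of the transduction channel, with Myo15, with Acot1, and 0 were lower.

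Markers of other cells varied in the member-positive cells of GFP low. The 8 nonsensory otic markers summed to 3596, 3312 and 3440 CPM in cells positive for Olfm4, Adam11 and Acot1, and to 3520, 3616 and 3542 CPM in cells negative for them. The 12 neuron markers summed to 1556, 1558 and 1560 CPM, against 1466, 1439 and 1459 CPM. Olfm4 is a known neutrophil and intestinal gene, but 9 of 9 leukocyte markers and 8 of 9 intestinal epithelium markers had no UMI in Olfm4-positive cells, with summed levels of 0 and 7.27 CPM. All 18 hair cell markers were present, with a summed level of 10731 CPM against 9375 CPM in negative cells. Of these 18 genes 1 was higher and 0 lower with Olfm4, 0 and 4 with Adam11, and 2 and 3 with Acot1. Rasd2, Barhl1 and Gng8 were lower with both Adam11 and Acot1 (Rasd2 at 54.8 and 134 CPM for Adam11). Within cluster 15 the interval included 1 for Rasd2 with Adam11 (0.786, 0.459 to 1.38) and for Gng8 with Acot1 (0.244, 0.00542 to 1.90). The other intervals of these genes stayed below 1 there. The 13 supporting cell markers summed to 262 CPM in Olfm4-positive, 172 CPM in Adam11-positive and 204 CPM in Acot1-positive cells. Each sum was below that of the negative cells, at 446, 537 and 470 CPM. Single markers went both ways: 4, 3 and 5 were measured, of which 1, 0 and 2 were higher and 0, 2 and 1 lower. Otogl was higher with Olfm4, and Otogl and Otoa with Acot1. Lfng and Sox2 were lower with Adam11, and Sox2 with Acot1. Among 8 Merkel cell markers Krt8, Krt18 and Isl1 were higher with each member (Krt8 at 338 and 97.1 CPM for Olfm4). Within cluster 15 Krt18 had 1.16 (0.915 to 1.47) with Olfm4, and the other intervals stayed above 1. Ccer2, which leads the Merkel-like cluster, was lower with Adam11 (267 and 1082 CPM) and Acot1 (196 and 957 CPM). Its ratios within cluster 15 were 0.427 (0.324 to 0.564) and 0.961 (0.717 to 1.28). Chga was lower with Olfm4. The summed Merkel level was 1436 CPM in Olfm4-positive and 1227 CPM in negative cells, 1001 and 1346 CPM for Adam11, and 1086 and 1273 CPM for Acot1. The part of these other cells in the results was not tested.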

How the data were processed

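Each deposited matrix gives UMI counts, not normalised, for genes and barcodes, and Cell Ranger 6.1.2 wrote it, per the file headers. Seurat 4.0.6, Cell Ranger 6.1.0 and build mm10 are named in the submitters' processing notes. The labels' description speaks of single nuclei and their protocol of cells. Barcodes with fewer than 1000 detected genes or over 15% mitochondrial UMIs were left out. Scrublet scores at a rate of 0.8% per 1000 barcodes marked doublets (120 day 16, 205 day 20, 109 GFP high and 137 GFP low cells), because its automatic threshold called 1, 78, 3 and 4. Kept cells were clustered together with Scanpy 1.11.5 (2000 variable genes, 30 components, 20 neighbours, Leiden resolution 1), and 17 of 25 clusters were named "X-like" from marker lists by a rule set after the clusters had been seen.

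Counts were summed over cells and divided by their total as CPM. Levels carry exact Poisson, ratios exact conditional binomial and shares exact Clopper-Pearson 95% intervals, which cover counting error only. With 1 library per group no test was made. Genes named by rule are the members, Atoh1, Egfp, Otof, Bmp2, the 5 genes most like each member on each of 2 measures, family genes at 10 CPM or more, and up to 3 genes of each pathway list by their ratio between Olfm4-positive and Olfm4-negative cells. Acot2 beyond its family, other list genes past the rule of size, leading genes of clusters and the neighbours in the ranking were chosen after their values were seen. Some genes that these rules name are not reported here. The members and lists were chosen with earlier results of these data known. Scripts were tested on simulated data. GENCODE M21 held 32158 of 32289 identifiers. TMM factors came from edgeR 4.0.16. Alternatives changed the gate, filters, scaling and thinning.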

Additional observations from a re-analysis of the deposited data

Results flagged for a closer look

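For Olfm4 the ratio of GFP low to GFP high was above 1 in cluster 15 and below 1 in the other hair-cell-like clusters. Acot1 was nearly level between the gates in cluster 15 and below 1 in the others. Olfm4 had 2.66 in cluster 15, but 0.577 in cluster 2, 0.360 in cluster 4 and 0.274 in cluster 14. Acot1 had 1.09 in cluster 15, but 0.449 in cluster 2, 0.221 in cluster 4 and 0.310 in cluster 14. All 8 counting intervals exclude 1, that of Acot1 in cluster 15 only just (1.004 to 1.19). In GFP high, 10 cells of cluster 15 held 95.4% of its Olfm4 UMIs, a weight that the counting interval does not cover. The difference between the clusters was not tested, since each gate is 1 library, and clusters 4 and 14 had only 80 and 48 cells in GFP low.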

How the results depend on the processing

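Of 90 alternative values for 12 results, 56 stayed within the counting interval of the reported value, 32 left it and 2 changed direction. Without the cell highest in Acot1 in each library, chosen after seeing the data, the ratio of day 20 to day 16 turned to 0.443. The ratio of GFP low to GFP high stayed above 1 for each gene under every alternative run, but this contrast chose the genes, so that is no support. Single clusters were not among the alternatives, and Olfm4 and Acot1 had ratios below 1 in clusters 2, 4 and 14. For Olfm4 the ratio between the gates was 2.31 with an Otof gate of 10 UMIs, 8.23 in hair-cell-like clusters, 6.54 with at most 10% mitochondrial UMIs, and 3.78 without the 10 highest cells of each library. For Adam11 it was 6.42 with a gate of 1 UMI, 5.60 with 10 UMIs, 5.71 with the mitochondrial limit and 6.5 with doublets kept. For Acot1 the same 4 gave 3.12, 3.61, 3.91 and 3.97, and hair-cell-like clusters 5.12. At the cluster weights of GFP low, an alternative chosen after seeing the data, the ratios were 1.72, 1.41 and 1.07 for Olfm4, Adam11 and Acot1.

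The Atoh1 ratio of GFP low cells moved most. For Adam11 it was 0.223 and 0.134 with Otof gates of 1 and 10 UMIs, 0.119 in hair-cell-like clusters, 0.124 when positive meant 2 UMIs, 0.197 after thinning to 3000 UMIs and 0.176 with doublets kept. For Acot1 it was 0.131 with a gate of 1 UMI, 0.155 in hair-cell-like clusters and 0 when positive meant 2 UMIs. For Olfm4 it was 0.303 with a gate of 10 UMIs, 0 when positive meant 2 UMIs or after thinning to 3000 UMIs, and 1.16 after thinning to 10000. A second random thinning gave 0.607, 0.270 and 0.324 for Olfm4, Adam11 and Acot1. In cluster 15 alone, chosen after seeing the data, Adam11 turned to 2.47 and Acot1 moved to 0.95, on 14 Atoh1 UMIs. Adam11 was in 75% of Olfm4-positive cells of hair-cell-like clusters and 80% of those of cluster 15. Acot1 was in 31.2% of Adam11-positive cells at 3000 UMIs. For all of these the cause was not tested. No paired analysis was possible because each group is 1 library. Depth limits Atoh1 in member-positive cells and every value of days 16 and 20.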
